A study of Mus musculus with 16 samples.

Results

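The data described here are the 8 of the 16 RNA-seq samples that were stimulated with beads, namely the 4 beads plus IL-2 samples with PGE2 and the 4 beads plus IL-2 samples without it, taken by their labels. All were mouse CD8+ T cells of C57BL/6J origin, taken from the spleen as naive cells and given repeated activation for 4 days, which yields antigen-experienced TCF1+CD8+ T cells. TCF1, the product of Tcf7, is a transcription factor of stem-like T cells. Treated cells received 100 ng/mL PGE2 for 1 h before stimulation and control cells were preincubated without it. All 8 samples then received 85 U/ml IL-2 and aCD3/CD28 beads, which engage the T cell receptor and its costimulator, at 1 bead per cell for 4 h. The other 8 samples had the same preincubations and IL-2 but no beads, and enter below only where the PGE2 effects of both states are set side by side. Nothing in the labels ties the replicates to separate animals or cultures, so P values measure the spread between these samples, which may be technical.

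Prostaglandin E2 (PGE2) is a lipid mediator made from arachidonic acid by cyclooxygenases in inflamed tissue and in many tumours. On T cells it binds the G protein-coupled receptors EP2 and EP4, encoded by Ptger2 and Ptger4. Both couple to Gs and raise cAMP, which acts through protein kinase A, Epac and CREB family transcription factors and is known to dampen signalling from the T cell receptor. Cells limit the signal with phosphodiesterases, which hydrolyse cAMP.

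The summed counts of the 8 samples ranged from 23236175 to 42950763 and mitochondrial genes held 1.43% to 1.69% of them. All 7 listed T cell genes were present, at a summed 2934 to 3084 CPM (counts per 1000000 counts of the scaled library) in untreated samples and 2582 to 2682 CPM with PGE2. Cd8a and Cd8b1, which encode the CD8 chains, were the members that fell (log2 fold changes -0.42 ± 0.07 and -0.25 ± 0.06, SE), whereas Cd3e was at 225 ± 8.02 and 236 ± 15.3 CPM (mean ± SD, n = 4 samples in each group here and throughout). Tcf7 was at 309 ± 16.6 CPM without PGE2 and rose to 407 ± 56.9 CPM with it (edgeR adjusted P = 0.0317). Markers of other lineages were scarce. The 8 B cell genes summed to 4.92 to 13.0 CPM and 4.60 to 10.9 CPM, the 10 myeloid genes to 0.609 to 1.66 CPM and 0.342 to 1.11 CPM, and the 5 natural killer (NK) cell genes to 0.323 to 0.624 CPM and 0.419 to 1.03 CPM, without and with PGE2. The 8 erythroid and platelet genes summed to at most 0.821 CPM in any sample. Of the 4 CD4 T cell genes, which summed to 19.7 to 24.8 CPM and 18.0 to 27.6 CPM, Cd4 itself was below 1 CPM. The other 3, Zbtb7b, Foxp3 and Cd40lg, each had a mean above 1 CPM. The 6 dendritic cell genes summed to 11.2 to 16.7 CPM and 15.8 to 18.0 CPM, mostly from Zbtb46 and Xcr1. The 7 stroma genes moved with PGE2, from 47.9 to 51.9 CPM to 65.8 to 76.9 CPM, through Pecam1, which T cells can also express, with 3 of the 7 at 0 in all samples, and their part in the results was not tested. In bulk RNA, fewer cells that express a gene and less RNA of it per cell cannot be told apart.

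PGE2 changed the level of many genes, most of them moderately. Of 13922 genes tested, 1370 (9.84%) passed an adjusted P below 0.05 (edgeR quasi-likelihood test), of which 841 (6.04%) were higher and 529 (3.80%) were lower with PGE2. Among these 1370 genes, 752 changed by less than 1.5-fold, 375 by 1.5-fold to 2-fold, 215 by 2-fold to 4-fold and 28 by 4-fold or more, the last made up of 19 higher and 9 lower genes. A gene is called here at an adjusted P below 0.05 and a change of at least 2-fold, which took 243 genes (1.75%), 167 of them higher (1.20%) and 76 lower (0.546%). In 237 of the 243, the 4 treated samples did not overlap the 4 untreated ones. Among all genes tested, 2493 (17.9%) had no overlap, 9.58% in the higher and 8.32% in the lower direction. The calls were made from these same samples, so their separation is no added support for them. The median log2 fold change of all genes was -0.01. Samples with the same replicate number deviated together, which the test used for the calls does not model. Replicates 1 and 2 also deviated together across the groups, as did 3 and 4, so the numbers may not mark 4 separate pairs. A fit with the replicate number as a block placed 2662 genes (19.1%) higher and 2882 (20.7%) lower at an adjusted P below 0.05. Blocked counts are given in parentheses beside the counts of a list. They are to be read against these shares of all genes, and the counts without the block against 6.04% higher and 3.80% lower. The plot of all genes by level places many of the large changes at low levels. Among called genes, 60 of the 167 higher ones had a mean below 1 CPM without PGE2 and 33 of the 76 lower ones had a mean below 1 CPM with it.

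**Figure D1:**
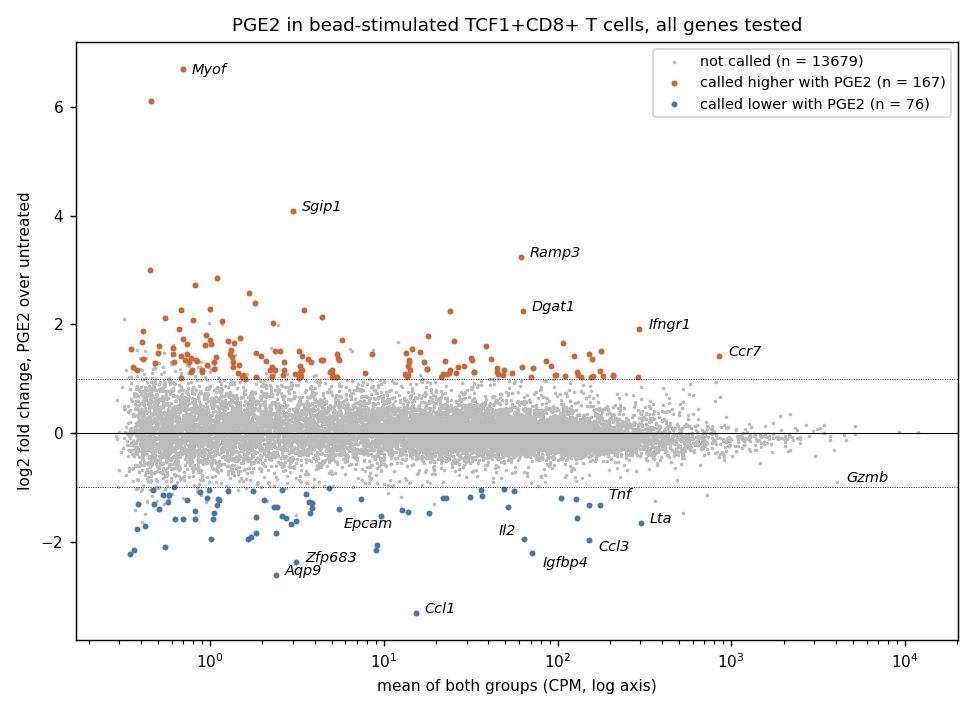
Each point is a gene tested, placed by the mean of both groups (CPM, log axis) and by the log2 fold change of PGE2 over untreated bead-stimulated cells (4 samples each), with dotted lines at 2-fold. The 167 genes called higher (orange) reach larger changes than the 76 called lower (blue), and most of the 13922 genes lie between the dotted lines.

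The genes of the PGE2 pathway itself moved in both directions: both EP receptors fell and 4 phosphodiesterases rose. Ptger2 was at 34.0, 31.7, 25.8 and 22.9 CPM in the untreated replicates 1 to 4 and at 16.6, 16.7, 14.6 and 13.3 CPM in the PGE2 replicates 1 to 4, a log2 fold change of -0.90 ± 0.13 (edgeR adjusted P = 0.00291). Ptger4 was at 123, 116, 109 and 94.1 CPM without PGE2 and at 72.5, 65.0, 53.2 and 43.8 CPM with it (log2 fold change -0.90 ± 0.15, edgeR adjusted P = 0.00455). For both receptors every treated sample lay below every untreated one, and neither reached 2-fold. Of the 16 tested Gs-coupled receptors and partners, 2 rose and 3 fell (5 and 5 in the blocked fit), and the largest rise was that of Ramp3, a partner protein of calcitonin-family receptors, from 11.8 ± 5.24 to 111 ± 25.9 CPM. Within replicate numbers, Ramp3 rose 12.0-, 12.3-, 8.05- and 8.12-fold. Hrh2, the Gs-coupled histamine receptor, fell by 0.46 on the log2 scale.

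Of the 9 cAMP phosphodiesterase genes tested, 4 rose and none fell (4 and 0 in the blocked fit), with a list median log2 fold change of 0.25. Pde4d was at 38.3, 39.0, 50.1 and 56.6 CPM without and 89.6, 86.8, 91.8 and 108 CPM with PGE2 (log2 fold change 1.04 ± 0.13, edgeR adjusted P = 0.00152). Pde4b was at 26.7, 25.4, 32.1 and 31.9 CPM and 54.3, 57.8, 61.9 and 54.1 CPM, close to 2-fold (0.98 ± 0.10), and Pde8a at 6.80, 6.68, 7.07 and 6.97 CPM and 15.0, 13.9, 12.4 and 11.4 CPM (0.95 ± 0.11). The groups did not overlap for any of the 3 genes, and Pde3b rose by less (log2 fold change 0.33). The call of Pde4d rests on the 2-fold limit, since its log2 fold change was 0.97 without untreated replicate 1, untreated replicate 2 or PGE2 replicate 4, at adjusted P values up to 0.00835. Among 20 adenylyl cyclase, protein kinase A and Epac genes, 2 rose and none fell (10 and 2 in the blocked fit). They were Rapgef3, which encodes Epac1, from 0.359 ± 0.117 to 1.12 ± 0.242 CPM, and Akap13, an anchor of protein kinase A, from 376 ± 15.6 to 495 ± 11.5 CPM. Of 13 genes of the CREB family, its coactivators and salt-inducible kinases, 4 rose and none fell (6 and 1 in the blocked fit). The 4 included Crem, the cAMP-responsive modulator that includes repressor isoforms, Sik1 (log2 fold change 0.43 ± 0.06) and the coactivator Ep300 (0.37 ± 0.08). Crem was at 67.7, 70.7, 85.9 and 103 CPM without and 228, 239.8, 226 and 197 CPM with PGE2. Of 10 RGS genes, which shorten G protein signals, Rgs3 fell (-0.44 ± 0.09) and none rose (4 rose and 2 fell in the blocked fit).

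Several of the largest rises were in genes outside the lists above. Dgat1, which encodes the enzyme of the last step of triglyceride synthesis, was at 15.9, 18.2, 26.5 and 28.1 CPM in untreated samples and 79.8, 91.9, 119 and 125 CPM with PGE2. It rose 4.73-fold (log2 fold change 2.24 ± 0.21, edgeR adjusted P = 0.000303), and between 4.47- and 5.04-fold within each replicate number. Gng4, a G protein gamma subunit, went from 1.66 ± 0.873 to 7.16 ± 0.976 CPM. Gpld1, a phospholipase that cleaves glycosylphosphatidylinositol anchors, went from 1.21 ± 0.261 to 5.75 ± 1.00 CPM. Gpld1 shares 45.5% of its exon bases with Mrs2 on the opposite strand, which was more abundant (44.6 CPM over the 8 samples) and did not pass (log2 fold change 0.10). Ypel4 went from 0.468 ± 0.365 to 1.89 ± 0.677 CPM, and its call was lost without untreated replicate 1, 2 or 3 or PGE2 replicate 3 (adjusted P of 0.0595 to 0.0713). Tecpr1, which acts in the fusion of autophagosomes with lysosomes, was among the genes of lowest P, at 40.4, 41.9, 48.6 and 44.9 CPM and 96.9, 96.7, 106 and 101 CPM (edgeR adjusted P = 4.44e-05).

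Both chains of the interferon-gamma receptor and one chain of the interleukin-12 receptor rose, as did guanylate-binding proteins, the GTPases that interferon-gamma induces. Ifngr1, the ligand-binding chain of the interferon-gamma receptor, was at 102, 96.2, 143 and 157 CPM in untreated samples and at 399, 402, 518 and 552 CPM with PGE2. The groups were far apart, and the log2 fold change was 1.92 ± 0.18 (edgeR adjusted P = 0.000303). Its partner chain Ifngr2 was also called, from 8.99 ± 2.17 to 18.6 ± 3.22 CPM. Il12rb2, the signalling chain of the interleukin-12 receptor, was at 64.5, 87.4, 93.3 and 125 CPM and 247, 253, 268 and 278 CPM, without overlap (log2 fold change 1.51 ± 0.17). Il12rb2 shares 40.0% of its exon bases with Serbp1 on the opposite strand, an abundant gene (1374 CPM over the 8 samples) that did not pass (log2 fold change -0.21). Of the 26 interleukin and interferon receptor genes tested, 6 rose and 4 fell (11 and 7 in the blocked fit), and 3 were called higher and 2 lower. Il12rb1, the other interleukin-12 receptor chain, was among those that fell (-0.38), with Il18rap (-0.36), Il6ra (-1.22) and Il1rl1, the receptor for interleukin-33, which went from 2.62 ± 0.694 to 0.681 ± 0.263 CPM. Il7r (0.85), Ifnar1 (0.65) and Tgfbr2 (0.49) rose.

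Among 48 interferon-stimulated genes, 9 rose and 1 fell (21 and 12 in the blocked fit), with a median log2 fold change of 0.10. The guanylate-binding proteins made up 5 of the 9, namely Gbp2, Gbp3, Gbp4, Gbp5 and Gbp7. Gbp5 was at 76.7, 82.1, 72.8 and 96.1 CPM without and 152, 173, 187 and 199.8 CPM with PGE2, and Gbp2 at 212, 204, 156 and 198 CPM and 344, 393, 358 and 467 CPM. Every treated sample exceeded every untreated one for both, with log2 fold changes of 1.13 ± 0.11 and 1.03 ± 0.12. Gbp2 was under 2-fold without untreated replicate 3 or PGE2 replicate 4 (log2 fold changes of 0.93 and 0.94), still at adjusted P values of at most 0.00284. The interferon-gamma-induced GTPases Igtp (0.44) and Iigp1 (0.70), the sensor Zbp1 (0.48) and the peptide transporter Tap1 (0.39) rose as well, whereas the exonuclease Isg20 fell (-0.71). Of 23 JAK-STAT genes, 4 rose and 1 fell (7 and 4 in the blocked fit). Stat4, which relays interleukin-12, went from 58.0 ± 10.3 to 100.2 ± 14.3 CPM, Stat3 from 665 ± 90.4 to 1055 ± 102 CPM, and the feedback inhibitor Socs2 fell from 55.1 ± 5.58 to 35.7 ± 3.44 CPM.

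**Figure D2:**
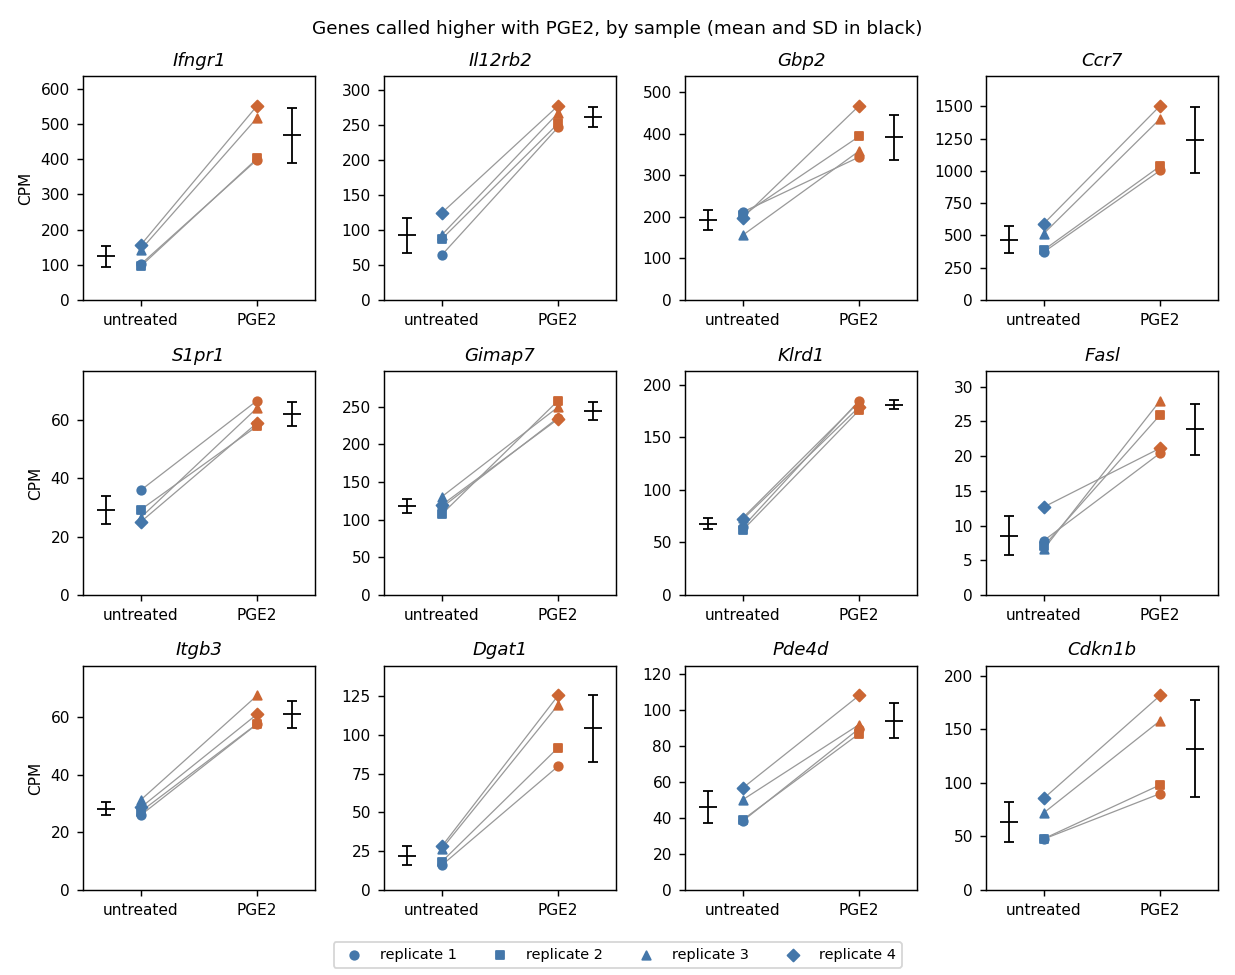
Each panel shows one gene called higher with PGE2, with the CPM of the 4 untreated (blue) and 4 PGE2-treated (orange) bead-stimulated samples from 0, lines joining samples of the same replicate number, and black marks for mean ± SD. In all 12 panels the treated samples lie above the untreated ones. In Ifngr1, Il12rb2, Ccr7, Itgb3, Dgat1, Pde4d and Cdkn1b, replicates 3 and 4 lie above 1 and 2 in both groups.

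Some genes of lymphoid homing and most of the GIMAP family rose. Of 22 chemokine receptor, homing and egress genes, 8 rose and none fell (12 and 2 in the blocked fit), with a median log2 fold change of 0.30. S1pr1, the sphingosine-1-phosphate receptor that guides T cells out of lymphoid tissue, was at 35.9, 29.2, 26.5 and 25.0 CPM and 66.6, 57.9, 64.1 and 58.9 CPM (log2 fold change 1.09 ± 0.11, edgeR adjusted P = 0.000360). P2ry10, a receptor for lysophospholipids, was at 125, 119.7, 139.9 and 158 CPM and 251, 245, 309 and 329.6 CPM, and Ccr7, which guides cells into lymph nodes, at 372, 388, 515 and 592 CPM and 1004, 1037, 1404 and 1505 CPM. In P2ry10 and Ccr7 the replicates 3 and 4 were above 1 and 2 in both groups, and the groups did not overlap in any of the 3 genes. P2ry10 was just under 2-fold without PGE2 replicate 4 (log2 fold change 0.99, adjusted P = 0.00144). The homing genes S1pr4 (0.76), Ccr2 (0.75), Selplg (0.53) and Ccr8 (0.48) rose by less than 2-fold.

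The GIMAP GTPases, small proteins that support lymphocyte survival, rose as 7 of 8 members at an adjusted P below 0.05, in the blocked fit too, with a median log2 fold change of 0.48. Gimap7 was at 116, 107, 131 and 119.6 CPM without and 236, 258, 249.9 and 234 CPM with PGE2 (log2 fold change 1.05 ± 0.08). Gimap6 was at 277, 282, 302 and 305 CPM and 492, 536, 537 and 511 CPM (0.84 ± 0.07), and Gimap3 at 419, 452, 499 and 468 CPM and 673, 774, 806 and 705 CPM (0.69 ± 0.08). The samples of the groups were separate for all 3, and Gimap7 alone of the family was called. GIMAP genes lie in 1 cluster, and Gimap7 shares 3.48% of its exon bases with the transcript Gm28053.

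Of 29 stem-like and naive T cell genes, 13 rose and 3 fell (17 and 5 in the blocked fit), with a median log2 fold change of 0.26. Besides Ccr7 and S1pr1 these rises included Klf2 (0.90), Il7r, Satb1 (0.80), Bach2 (0.56) and Ikzf2, which encodes Helios and was at 44.4, 44.8, 52.5 and 66.7 CPM without and 137, 149, 159 and 211 CPM with PGE2. The 3 that fell were Igfbp4, Id3 and Treml2. Igfbp4, which binds insulin-like growth factors, was at 128, 104, 132 and 105 CPM and 25.6, 19.3, 28.7 and 27.3 CPM, and Id3, an inhibitor of E proteins, at 94.7, 70.6, 74.2 and 59.6 CPM and 31.4, 25.0, 28.0 and 30.8 CPM. Neither overlapped between groups (edgeR adjusted P = 4.43e-05 and 0.000324), so the list did not move one way.

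Brakes on PI3K-AKT signalling and targets of FOXO, the transcription factors that AKT inactivates, were 9 higher and 3 lower of 28 (16 and 6 in the blocked fit), with a median log2 fold change of 0.18. Phlpp1, a phosphatase of AKT, was at 20.5, 19.1, 21.4 and 22.3 CPM and 47.4, 45.0, 44.7 and 43.6 CPM (edgeR adjusted P = 4.44e-05). Irs2, an adaptor of the insulin receptor, went from 14.8 ± 3.57 to 31.1 ± 0.902 CPM, and Sesn3, a sestrin that restrains mTORC1, from 85.1 ± 13.9 to 178 ± 25.9 CPM. Pik3ip1 (0.79), Txnip (0.73), Bcl2l11 (0.59) and Inpp5d (0.40) rose too, whereas Inpp4b (-0.47), Trat1 (-0.41) and Sesn2 (-0.43) fell. Cdkn1b, the cyclin-dependent kinase inhibitor p27, was at 47.5, 47.8, 72.0 and 85.5 CPM and 89.9, 98.1, 158 and 182 CPM. Its untreated replicates 3 and 4 came close to the lower treated samples, and the call was lost without untreated replicate 1, 2 or 3 or PGE2 replicate 3 or 4 (adjusted P of 0.0617 to 0.101). Sesn3 was under 2-fold without PGE2 replicate 4 (log2 fold change 0.98).

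Several cytokine and chemokine transcripts fell with PGE2, with a wide spread between replicates. Of 21 cytokine genes tested, 2 rose and 7 fell (3 and 11 in the blocked fit), 6 of them called lower, with a median log2 fold change of -0.50. Tnf was at 309.8, 279, 221 and 189 CPM in untreated replicates 1 to 4 and at 138, 126, 76.5 and 55.9 CPM in PGE2 replicates 1 to 4. The level was higher in replicates 1 and 2 than in 3 and 4 of either group, and within replicate numbers Tnf was 2.21- to 3.39-fold lower with PGE2 (log2 fold change -1.32 ± 0.27, edgeR adjusted P = 0.0142). Lta, the neighbouring gene for lymphotoxin alpha, was at 499, 496, 437 and 398 CPM and 202, 200.1, 115 and 57.8 CPM, 2.48- to 6.88-fold lower. Il2 was at 159, 117, 79.4 and 49.9 CPM and 46.6, 31.4, 16.7 and 9.18 CPM, 3.42- to 5.44-fold lower within replicate numbers although its levels without PGE2 spanned a wide range. Il13 (14.7 ± 3.17 to 3.25 ± 1.35 CPM), Csf2, which encodes GM-CSF (26.9 ± 4.79 to 9.67 ± 4.62 CPM), and Osm (76.2 ± 6.12 to 36.0 ± 9.14 CPM) were called lower as well, and Tnfsf10 fell (-0.76). Il16 (0.57) and Fasl were the members that rose.

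Of 9 chemokine genes, 2 fell and none rose (5 and 0 in the blocked fit). Ccl3, a chemokine that recruits leukocytes, was at 343, 281, 189.6 and 160.2 CPM and 117, 78.6, 31.6 and 18.9 CPM, and Ccl1, a ligand of CCR8, at 33.3, 35.3, 21.7 and 21.0 CPM and 4.34, 4.27, 1.43 and 1.11 CPM. Within replicate numbers, Ccl3 was 2.94- to 8.49-fold and Ccl1 7.67- to 18.9-fold lower. Ccl3 (adjusted P of 0.0603 to 0.0960) and Il2 (0.0555 to 0.0951) each lost their call without untreated replicate 1, 2 or 3 or PGE2 replicate 2 or 3, and Tnf without untreated replicate 2 or PGE2 replicate 3 (0.0520 and 0.0504). In the blocked fit all 3 stayed called (adjusted P = 1.87e-05, 2.62e-07 and 2.44e-06).

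**Figure D3:**
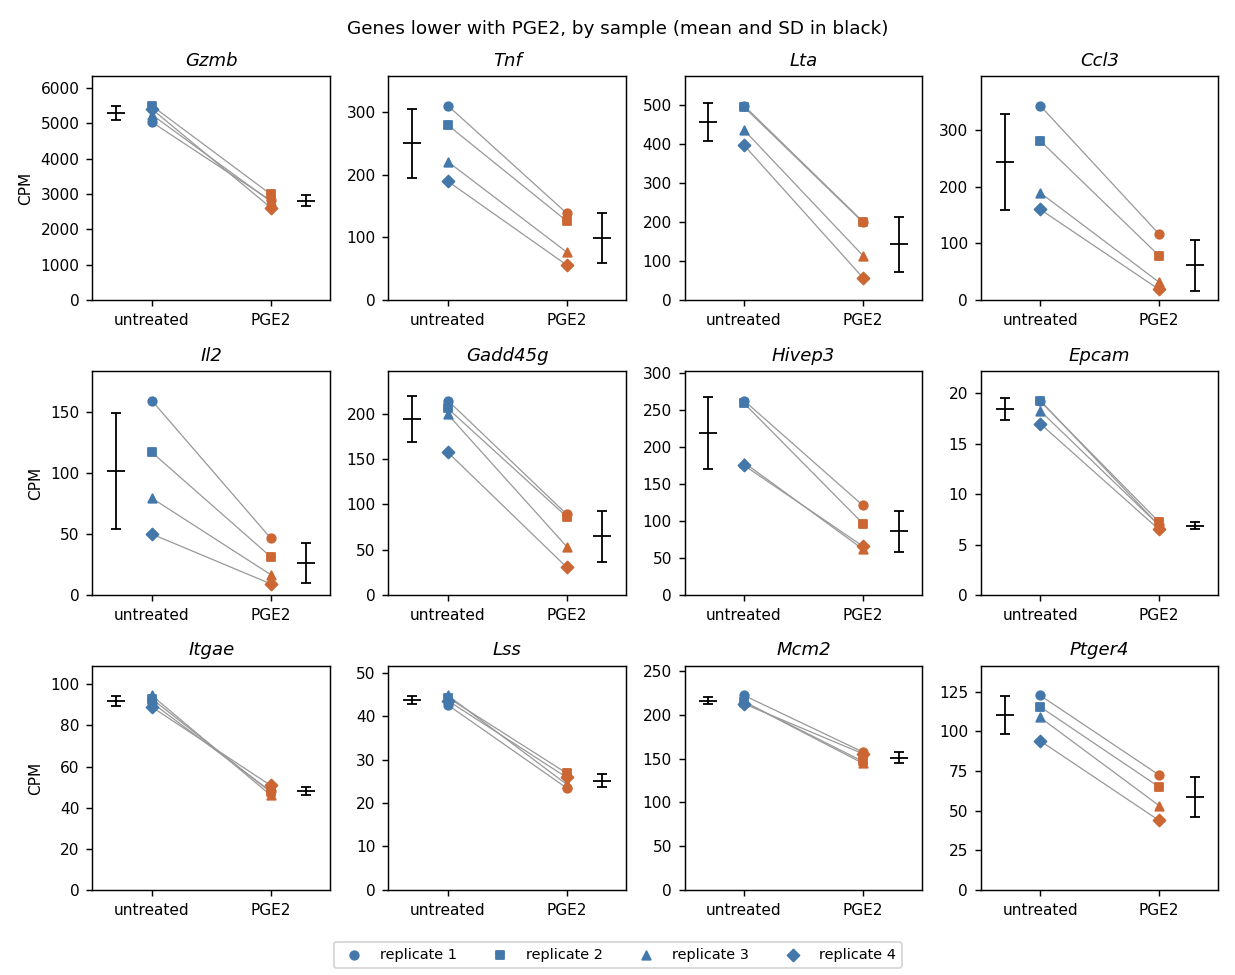
Each panel shows one gene lower with PGE2, with the CPM of the 4 untreated (blue) and 4 PGE2-treated (orange) bead-stimulated samples from 0, lines joining samples of the same replicate number, and black marks for mean ± SD. The lines fall in every panel, steeply and with a wide spread in Ccl3 and Il2 and with a narrow spread in Gzmb, Epcam, Itgae, Lss and Mcm2.

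Cytotoxic genes split. Of 20 tested, 3 rose and 6 fell (7 and 7 in the blocked fit). Gzmb, granzyme B, was at 5039.6, 5504, 5249.7 and 5411 CPM without and 2824, 2999, 2796 and 2621 CPM with PGE2, just short of 2-fold but with little spread (log2 fold change -0.91 ± 0.07, edgeR adjusted P = 0.000109). Prf1 (-0.70), Nkg7 (-0.70), Ctsw (-0.40) and Rab27a (-0.43), a regulator of granule release, fell with it. Crtam, an adhesion receptor of activated CD8+ T cells, was at 248, 189, 142 and 139.6 CPM and 109, 82.9, 54.7 and 62.0 CPM, lower in each treated sample than in any untreated one. By contrast, the death ligand gene Fasl was at 7.83, 7.05, 6.62 and 12.7 CPM and 20.4, 25.9, 28.0 and 21.1 CPM (log2 fold change 1.49 ± 0.20), and Gzma (0.90) and the serpin gene Serpinb6b (0.43) rose. Of 6 NK-type receptor genes tested, Klrd1, which encodes the CD94 partner of NKG2 receptors, was the one that passed (4 rose and 1 fell in the blocked fit). It was at 64.8, 61.8, 73.4 and 72.0 CPM and 185, 176, 184 and 179 CPM, and had the lowest adjusted P of the called genes (log2 fold change 1.42 ± 0.07, edgeR adjusted P = 3.62e-05).

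Inhibitory receptors and ligands were 3 higher and 2 lower of 20 (5 and 10 in the blocked fit). Nt5e, the ectoenzyme CD73 that makes adenosine, was at 7.86, 7.97, 10.3 and 13.5 CPM and 19.8, 20.1, 25.9 and 31.4 CPM. Ctla4 was at 371, 478, 657 and 757 CPM and 876, 1012, 1290.3 and 1129.9 CPM and rose by less than 2-fold (log2 fold change 0.93 ± 0.21), and Cd101 rose (0.76). Lair1, an inhibitory receptor for collagen, went from 4.45 ± 0.689 to 1.39 ± 0.330 CPM, and Havcr2, which encodes TIM-3, fell (-0.90). Among 26 costimulatory genes of the TNF and CD28 families, 3 rose and 4 fell (10 and 9 in the blocked fit). The ligand genes Tnfsf14, also known as LIGHT, at 211, 166, 114 and 90.2 CPM and 95.8, 69.7, 45.2 and 39.8 CPM, and Cd70, from 1.23 ± 0.123 to 0.405 ± 0.216 CPM, were called lower, and the decoy receptor gene Tnfrsf26 was called higher (log2 fold change 1.03 ± 0.09, 18.3 ± 0.970 CPM with PGE2). Treated replicate 1 of Tnfsf14 overlapped the untreated range, and its call was lost without untreated replicate 1, 2 or 3 or PGE2 replicate 2, 3 or 4 (adjusted P of 0.0603 to 0.113). That of Cd70 was lost without untreated replicate 2 or 3 (0.0512 and 0.0558), and Tnfrsf26 was just under 2-fold without untreated replicate 2 (log2 fold change 1.00, adjusted P = 0.00153).

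Itgae and Epcam, adhesion genes linked to epithelium, fell. Of 21 integrin and adhesion genes, 2 rose and 5 fell (3 and 10 in the blocked fit). Itgae, the CD103 integrin chain that binds E-cadherin, was at 91.1, 93.0, 94.6 and 89.0 CPM and 48.0, 47.6, 46.1 and 50.8 CPM (log2 fold change -0.93 ± 0.06, edgeR adjusted P = 4.44e-05). Epcam, the epithelial cell adhesion molecule, was at 19.3, 19.2, 18.3 and 17.0 CPM and 6.89, 7.24, 6.89 and 6.49 CPM (log2 fold change -1.41 ± 0.09, edgeR adjusted P = 4.44e-05). Both had tight groups with a wide gap between them. E-cadherin itself, Cdh1, was called lower (2.89 ± 0.488 to 0.794 ± 0.0736 CPM), a gene named after its values were seen. Tns1, a tensin that ties integrins to actin, was at 47.0, 46.1, 42.9 and 39.3 CPM and 20.9, 20.4, 17.7 and 17.8 CPM, and Pdgfb, a growth factor chain, went from 31.9 ± 3.25 to 13.8 ± 1.62 CPM. Itgb3, the integrin beta-3 chain, was called higher, at 25.9, 27.2, 31.2 and 28.6 CPM and 57.6, 57.7, 67.5 and 61.0 CPM, and Itga4 rose (0.57). Itgax, which also counts among dendritic cell markers, fell from 0.590 ± 0.154 to 0.166 ± 0.0887 CPM, and its call was lost without PGE2 replicate 2 (adjusted P = 0.0542). Of 30 sialyltransferase and glycan enzyme genes, 4 rose and 5 fell (6 and 11 in the blocked fit), with St6galnac3 called higher (0.457 ± 0.110 to 1.42 ± 0.0695 CPM).

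Of 815 transcription factors tested, 18 were called (2.21%), close to the 1.75% of all genes. The 9 higher included Crem, Ikzf2, Mxd4, Tsc22d3, Klf3, Zbtb42, Tbx6 and Foxj1, and the 9 lower included Hivep3, Id3, Egr2, Rxra, Mycn, Zfp683, Tub and Hlf. Mxd4, a repressor of the MYC network, went from 17.7 ± 1.49 to 46.0 ± 6.41 CPM while Mycn went from 2.90 ± 0.458 to 1.22 ± 0.131 CPM. Tsc22d3, a glucocorticoid-inducible leucine zipper, went from 17.4 ± 5.20 to 40.5 ± 10.3 CPM. Hivep3, a zinc finger protein, was at 263, 259, 179 and 175 CPM and 121, 96.6, 61.9 and 65.9 CPM, again higher in replicates 1 and 2 of both groups. Rxra, a retinoid receptor, went from 50.8 ± 7.41 to 22.5 ± 5.35 CPM. Of 30 immediate early and AP-1 genes, 1 rose and 8 fell (2 and 17 in the blocked fit). Egr2 and Egr3, targets of T cell receptor signalling, were at 89.4, 72.8, 48.5 and 54.6 and 188, 174, 149.9 and 148 CPM without and 47.1, 38.0, 24.4 and 18.6 and 123, 99.9, 72.3 and 59.2 CPM with PGE2, and Egr1 (-0.81), Batf (-0.84), Batf3 (-0.77), Nab2 (-0.61) and Jund (-0.54) fell too. The call of Egr2 was lost in 7 of the 8 fits that left out 1 sample, all but that without PGE2 replicate 1 (adjusted P of 0.0517 to 0.129), and that of Hlf without untreated replicate 2, 3 or 4 or PGE2 replicate 3 or 4 (0.0507 to 0.0997). Of 26 effector, residency and exhaustion factors, 2 rose and 6 fell (5 and 11 in the blocked fit). Hif1a, the oxygen-regulated factor, rose from 404 ± 28.2 to 748 ± 88.4 CPM, and Prdm1 (-0.74), Nfatc1 (-0.55) and Nfatc2 (-0.49) fell. Gadd45g, a stress-response partner of MAP kinase kinases, was at 215, 206, 199 and 157 CPM and 89.1, 86.4, 53.4 and 30.5 CPM, and of the 21 MAPK phosphatase, Sprouty and GADD45 genes 2 rose and 4 fell (4 and 9 in the blocked fit).

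Proximal T cell receptor genes moved modestly. Of 33 tested, 3 rose and 7 fell (7 and 11 in the blocked fit) and none was called. The adaptors Lcp2 (613 ± 72.2 to 407 ± 79.5 CPM) and Lat (-0.41) and the exchange factor Vav1 (-0.29) fell. Cblb, a ubiquitin ligase that restrains the receptor, was at 388, 419, 409 and 473 CPM and 613, 619, 635 and 639 CPM, and the phosphatase Ptpn22 (0.53) and the kinase Txk (24.4 ± 2.56 to 43.9 ± 2.49 CPM) rose. Of 27 NF-kB genes, 2 rose and 2 fell (3 and 11 in the blocked fit), or 7.41% each way without the block. Of 27 BCL2 family and p53 genes, 2 rose and 1 fell (7 and 11 in the blocked fit), or 7.41% and 3.70% without it. Among all genes tested, 6.04% rose and 3.80% fell (19.1% and 20.7% in the blocked fit).

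**Figure D4:**
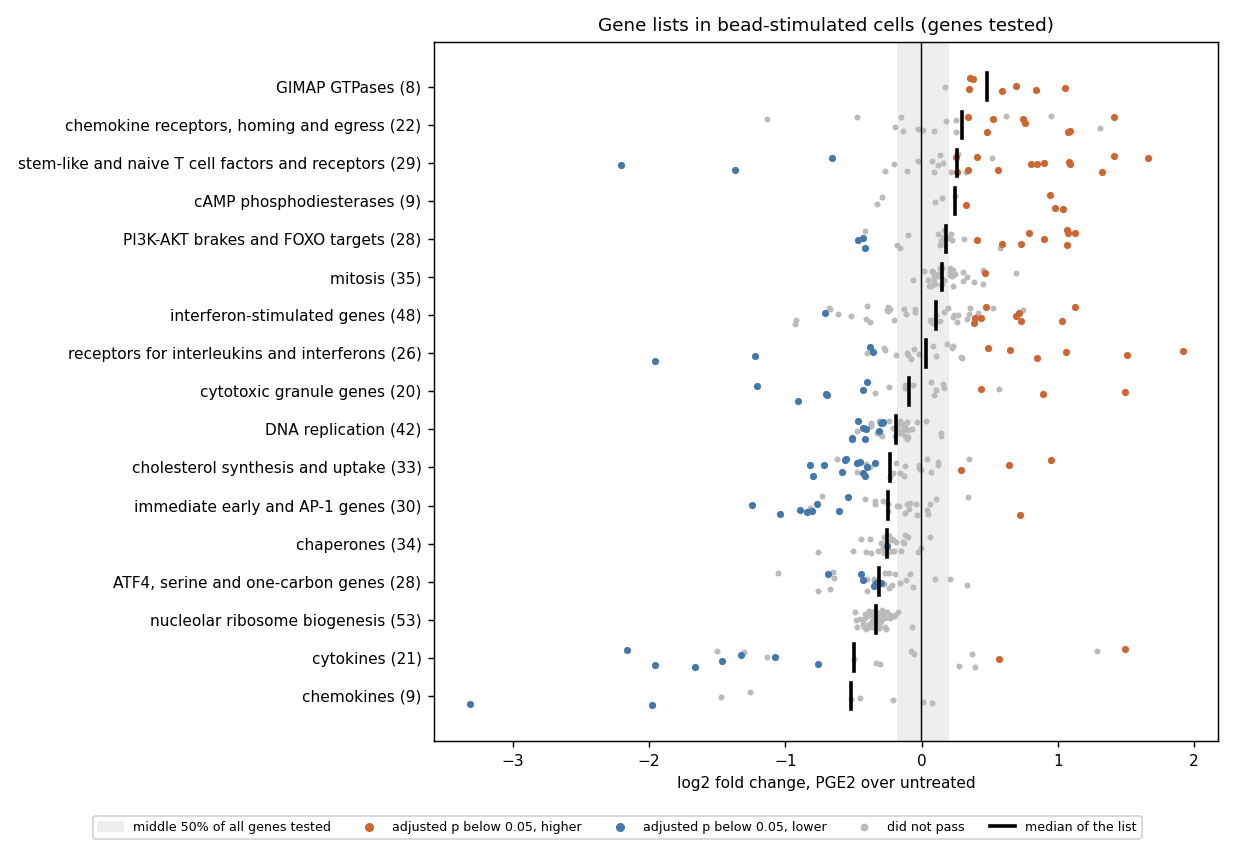
Each row is a gene list with the number of members tested, each point a member at its log2 fold change of PGE2 over untreated bead-stimulated cells (4 samples each), coloured by direction where the adjusted P was below 0.05, with the list median as a black bar and the middle 50% of all genes in grey. Among the lists drawn, the medians run from 0.48 for GIMAP GTPases to -0.52 for chemokines, and the nucleolar genes all lie below 0 without a coloured point.

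Several sterol synthesis and DNA replication genes fell by less than 2-fold, with small spread. Of 33 cholesterol genes, 3 rose and 12 fell (4 and 20 in the blocked fit), with a median log2 fold change of -0.23. Lss, which closes the sterol ring as lanosterol synthase, was at 42.6, 44.3, 44.8 and 43.6 CPM and 23.5, 26.9, 24.3 and 25.9 CPM (log2 fold change -0.80 ± 0.07, edgeR adjusted P = 0.000190), and Cyp51, the next enzyme, at 191, 164, 145 and 146 CPM and 109, 93.0, 80.3 and 82.7 CPM. The 12 also held Dhcr7 (-0.71), Msmo1 (-0.58), Idi1 (-0.56), Hmgcs1 (-0.47) and Sqle (-0.41). The 3 that rose were the sterol exporters Abca1 (2.90 ± 0.241 to 5.57 ± 0.977 CPM) and Abcg1 (0.64) and the sterol-sensing receptor Nr1h2 (0.29). Of 20 fatty acid synthesis genes none passed by edgeR (6 rose and 7 fell in the blocked fit), 4 had an unadjusted P below 0.05, and DESeq2 placed 2 higher and 2 lower.

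Of 42 DNA replication genes, 9 fell and none rose (28 and 1 in the blocked fit), with a median log2 fold change of -0.19. Mcm2, a subunit of the replicative helicase, was at 222, 215, 215 and 213 CPM and 158, 147, 145 and 156 CPM (log2 fold change -0.51 ± 0.06, edgeR adjusted P = 0.000772). Mcm3 (287 ± 8.38 to 207 ± 12.8 CPM) and the origin recognition gene Orc1 (26.3 ± 2.22 to 18.4 ± 0.615 CPM) fell alike. In the 35 mitosis genes, 34 had a log2 fold change above 0 with a median of 0.15, but Cdc25b alone passed (83.8 ± 8.23 to 115 ± 17.3 CPM), whereas 21 rose and none fell in the blocked fit. Among 23 G1 cyclins, kinases and inhibitors, 1 rose and 4 fell (5 and 12 in the blocked fit). Cdkn2a went from 4.43 ± 0.823 to 2.61 ± 0.261 CPM, and Cdkn2b from 0.742 ± 0.147 to 0.335 ± 0.0708 CPM with a call that was lost in each of the 8 fits without 1 sample (adjusted P of 0.0528 to 0.0867).

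Nucleolar ribosome biogenesis genes and chaperones had mostly small negative log2 fold changes, most of which passed in the blocked fit and few without it. All 53 nucleolar ribosome biogenesis genes had a log2 fold change below 0, with a median of -0.33 and a range of -0.49 to -0.07. None passed by edgeR in the fit without the block (15 had an unadjusted P below 0.05, and DESeq2 placed 0 higher and 1 lower), while 52 fell and none rose with the block, against 20.7% of all genes lower. Ncl, nucleolin, was at 4272, 3673, 3020.3 and 2940.5 CPM without and 3317, 3019.8, 2109 and 1845 CPM with PGE2. The groups overlapped, since replicates 1 and 2 were above 3 and 4 in both, and the adjusted P was 0.182 without and 0.000357 with the block. Npm1, nucleophosmin, was at 2748, 2438, 2258 and 2212 CPM and 2239.9, 2025, 1809 and 1636 CPM, with an adjusted P of 0.0886 without and 0.000413 with the block. Chaperones had 1 gene that fell of 34 (29 in the blocked fit, median log2 fold change -0.25), and genes of ATF4, serine and one-carbon metabolism had 6 that fell of 28 (18 lower and 2 higher in the blocked fit, median -0.31), among them Phgdh, the first enzyme of serine synthesis (502 ± 14.2 to 368 ± 23.7 CPM). Purine and pyrimidine synthesis genes were 1 higher and 3 lower of 29 (2 and 21 in the blocked fit). Nme1, a nucleoside diphosphate kinase, went from 68.9 ± 7.07 to 44.2 ± 7.49 CPM. Mitochondrial ribosomal proteins had 4 that fell of 77 (50 lower and 1 higher in the blocked fit). Nuclear genes of oxidative phosphorylation had none of 83 past the edgeR test (41 lower and 4 higher in the blocked fit), with 33 at an unadjusted P below 0.05 and 0 higher and 11 lower by DESeq2. Of 83 cytosolic ribosomal proteins, Rps27l alone fell (14 in the blocked fit, 16.9% against 20.7% of all genes), and the median was -0.09.

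Some large changes sat next to each other in the genome. Of the 243 called genes, 45 (18.5%) lay within 100000 bases of another called gene, against 5.31% of the genes tested and not called. Such groups included Tnf and Lta, Cd70 and Tnfsf14, Gbp2 and Gbp5, Ifngr1 and the long noncoding RNA Gm33104 (2.89 ± 0.578 to 7.85 ± 1.44 CPM), and Ifngr2 and A930006K02Rik (1.87 ± 0.744 to 4.89 ± 1.74 CPM). Neighbours did not always agree in direction, as Ccr7 was called higher and Igfbp4 lower. Overlapping genes can share reads, and the use of strand in counting is not given in the sources used here. Of the 243 called genes, 81 share exon bases with another annotated gene. The 45 neighbours include pairs that do so, such as Crem and Gm6225, Gimap7 and Gm28053, and Pilrb1 and Gm36551. Of 332 long intergenic noncoding RNAs tested, 8 were called higher and 2 lower (3.01%), against 1.75% of all genes and 3.32% of genes below 1 CPM. Gm20743 was one of the lower, at 20.5, 20.4, 8.20 and 9.80 CPM and 5.07, 5.27, 1.96 and 1.75 CPM, with a call that was lost without untreated replicate 2 (adjusted P = 0.0528).

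Promoter windows were searched because cAMP acts through CREB, which binds the cAMP response element (CRE). RefSeq windows (GRCm38.p6, 250 bases before to 50 after a gene's start) matched 9543 of the 13922 genes by symbol, 109 of the 167 called higher and 55 of the 76 called lower. Both strands were read, the core TGACG lies within the full CRE, and a gene counts where any of its windows holds the letters. The full CRE, TGACGTCA, was in 3.71% of all genes with a window, in 1 of the 109 called higher (0.917%) and in 2 of the 55 called lower (3.64%). The core letters, TGACG, were in 36.2% of all, 32.1% of those higher and 27.3% of those lower. The AP-1 letters, TGANTCA with any base at N, were in 5.86% of all, in 18 of the 109 higher (16.5%) and in 6 of the 55 lower (10.9%). Among all genes past an adjusted P of 0.05, they were in 8.24% of those higher and 7.60% of those lower. The E-box CACGTG was in 12.0%, 8.26% and 14.5%. These shares describe letters in a window and carry no test. The window of Pak1, the p21-activated kinase gene that held the full CRE among those called higher (1.71 ± 0.346 to 3.54 ± 0.675 CPM), lies on the plus strand at chr7:97788291-97788590 and is shown with both copies of TGACGTCA in capitals, the first beginning 234 bases before the start.
Pak1: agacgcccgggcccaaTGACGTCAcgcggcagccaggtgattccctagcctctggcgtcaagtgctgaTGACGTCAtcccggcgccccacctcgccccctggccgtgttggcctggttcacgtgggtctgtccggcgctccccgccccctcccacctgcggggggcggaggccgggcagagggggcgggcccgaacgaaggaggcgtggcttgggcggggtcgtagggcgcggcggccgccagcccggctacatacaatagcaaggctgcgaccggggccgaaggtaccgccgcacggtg
Pak1 and Plaur were named after their windows and values were seen. The next 4 windows belong to genes called higher and show the AP-1 letters in capitals: Gbp2 at chr3:142620413-142620712, P2ry10 at chrX:107088242-107088541, Ypel4 at chr2:84733954-84734253 and Plaur, the urokinase receptor gene (19.4 ± 1.77 to 58.1 ± 12.5 CPM), at chr7:24462233-24462532, all on the plus strand. The letters begin 102, 99, 154 and 69 bases before the start in that order. They read TGAATCA in P2ry10, TGAGTCA in Gbp2 and TGACTCA in Ypel4 and Plaur.
Gbp2: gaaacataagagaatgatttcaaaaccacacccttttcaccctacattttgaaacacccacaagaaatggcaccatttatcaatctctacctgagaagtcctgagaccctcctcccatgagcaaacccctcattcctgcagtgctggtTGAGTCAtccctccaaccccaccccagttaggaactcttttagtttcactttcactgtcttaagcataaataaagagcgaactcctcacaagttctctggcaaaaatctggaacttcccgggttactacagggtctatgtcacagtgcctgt
P2ry10: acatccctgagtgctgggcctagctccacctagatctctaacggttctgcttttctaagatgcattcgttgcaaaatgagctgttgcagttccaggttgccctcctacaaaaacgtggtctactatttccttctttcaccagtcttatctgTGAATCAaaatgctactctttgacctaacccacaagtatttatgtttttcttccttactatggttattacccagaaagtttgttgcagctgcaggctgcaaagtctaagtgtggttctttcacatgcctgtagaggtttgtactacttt
Ypel4: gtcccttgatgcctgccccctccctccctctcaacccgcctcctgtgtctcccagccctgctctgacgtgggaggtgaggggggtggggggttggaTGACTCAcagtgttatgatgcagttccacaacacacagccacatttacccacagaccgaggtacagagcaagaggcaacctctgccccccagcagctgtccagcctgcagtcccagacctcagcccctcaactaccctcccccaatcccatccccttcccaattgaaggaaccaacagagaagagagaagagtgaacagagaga
Plaur: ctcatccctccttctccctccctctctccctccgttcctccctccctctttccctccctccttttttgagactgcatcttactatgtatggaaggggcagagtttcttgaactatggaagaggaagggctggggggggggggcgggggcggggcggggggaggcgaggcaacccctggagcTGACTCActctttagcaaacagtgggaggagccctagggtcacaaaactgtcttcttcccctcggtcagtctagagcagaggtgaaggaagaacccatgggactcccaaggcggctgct

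The same PGE2 exposure without beads changed 490 of 14505 genes at the same limits (3.38%), from samples that the bead comparison does not use. The difference between both PGE2 effects was tested over all 16 samples and passed in 113 of 15096 genes (0.749%), of which 35 (0.232%) differed by at least 1 on the log2 scale. Of the genes named above, Ifngr1 and Epcam were called both for PGE2 in bead-stimulated cells and for the difference. Without beads, Ifngr1 was at 709.9 ± 44.3 CPM and rose to 1122 ± 126 CPM with PGE2 (log2 fold change 0.68 ± 0.08), so that its rise was larger with beads by 1.25 ± 0.20 on the log2 scale (edgeR adjusted P = 0.00682). Epcam was at 4.63 ± 0.862 CPM and 4.55 ± 1.02 CPM without beads (-0.00 ± 0.19), and the difference was -1.40 ± 0.21 (edgeR adjusted P = 0.00382). For Ifngr1, the untreated level with beads was thus the lowest of the 4 groups, and for Epcam it was the highest. The receptor gene Ptger2 moved in opposite directions: without beads it rose from 6.15 ± 0.487 to 7.70 ± 0.332 CPM (0.34 ± 0.10, edgeR adjusted P = 0.0269), with a difference of -1.23 ± 0.17 (edgeR adjusted P = 0.00336). Ptger4, in contrast, was at 33.3 ± 1.65 and 22.2 ± 1.40 CPM without beads (-0.57 ± 0.07), and its difference did not pass (edgeR adjusted P = 0.614).

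Smaller differences passed for Gimap7 (0.58 ± 0.11) and Gimap6 (0.49 ± 0.11), whose rises were larger with beads, and for Tns1 (-0.85 ± 0.13), whose fall was larger. In cells without beads, Gimap7 was at 194 ± 12.7 CPM without PGE2 and 268 ± 23.3 CPM with it. For the cytokines the values stood side by side without a detected difference: the log2 fold change of Tnf was -1.32 ± 0.27 with and -1.21 ± 0.17 without beads, and that of Lta -1.66 ± 0.33 and -1.38 ± 0.13 (edgeR adjusted P of the differences 0.981 and 0.931). Gzmb was at 752 ± 213 CPM and 410.5 ± 155 CPM without beads, far below its levels with beads, and fell by 0.85 on the log2 scale, against 0.91 with beads (edgeR adjusted P of the difference 0.997). Such values leave room for differences larger than their standard errors, which were 0.34, 0.37 and 0.28 on the log2 scale for Tnf, Lta and Gzmb.

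**Figure D5:**
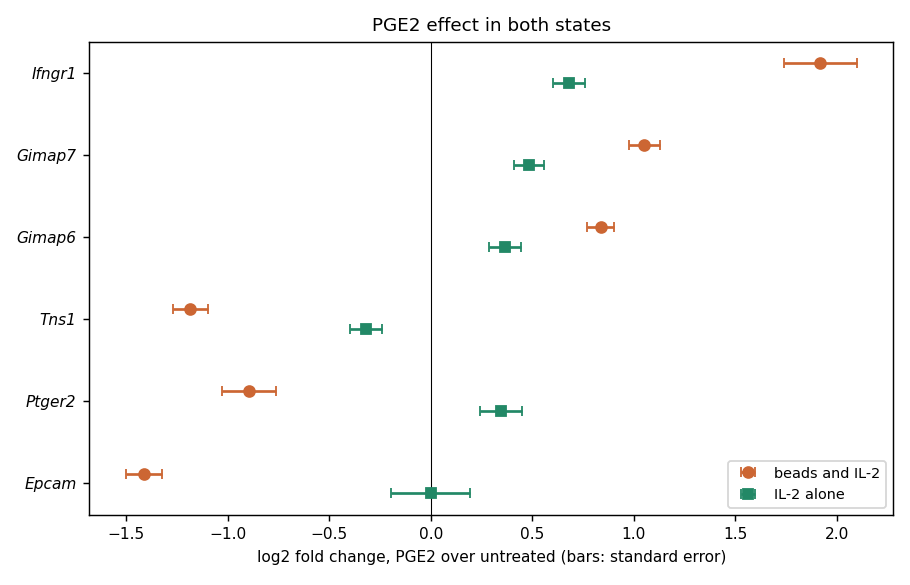
The log2 fold change of PGE2 over untreated (x axis, bars for the standard error, 4 samples against 4) is drawn for 6 named genes whose PGE2 effect differed between states, in cells with beads and IL-2 (orange circles) and in cells with IL-2 alone (green squares). The pairs are separated in each gene, and for Ptger2 they lie on opposite sides of 0.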

How the data were processed

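Poly(A) RNA of 16 samples (4 groups of 4) was sequenced by the authors. The deposited counts per gene came from HISAT2 (2.0.5) alignment to GRCm38/mm10 and featureCounts (1.5.0-p3), and DESeq2 (1.20.0) is named in the submitters' processing notes; annotation release and use of strand are not given in the sources used here. The deposited FPKM values were made by the authors from the counts and gene lengths, and were used only for alternatives. Samples were grouped by their labels.

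Counts were analysed in R (4.3.3) with the quasi-likelihood test of edgeR (4.0.16), TMM scaling, filterByExpr with a minimum count of 10, and Benjamini-Hochberg adjustment over all genes tested. Calls required both an adjusted P under 0.05 and a change of 2-fold or more. CPM values use TMM-scaled library sizes. DESeq2 (1.42.0), limma (3.58.1) for genes whose mean FPKM reached 1, with a pseudocount of 1 or 0.1 before taking log2, other scalings and filters, a replicate block and omission of each sample were alternatives. Fold changes on the log2(FPKM + pseudocount) scale understate changes of low genes. On data simulated for the bead comparison, edgeR recovered 91.5% of genes changed by 1.5 and 99.0% of those changed by 2 on the log2 scale, with 1 false call among 13705 genes. The simulated samples were independent, without the deviation shared by replicate number seen in the data. Changes smaller than 1.5 on the log2 scale were not simulated, so these figures do not cover them.

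Same-numbered samples deviated together, with r of 0.289 to 0.495 for the pairs and -0.466 to 0.330 for other numbers. Each of the 8 samples correlated best with its own number, so the replicate numbers were taken to pair the samples. Unlike numbers also correlated within replicates 1 and 2 and within 3 and 4 (r of 0.259 to 0.330), and all pairs across these sets were negative. PGE2 replicate 2 had r of 0.289 with untreated replicate 2 and 0.288 with untreated replicate 1. The samples thus split mainly into 1 and 2 against 3 and 4, and the block takes up this split too. The pairing comes from the data, as the labels give only the number.

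The comparison, the gene lists and the rule for named genes were chosen with earlier results of these data known. The rule took the 10 largest changes in each direction whose mean reached 1 CPM and whose groups did not overlap, the 6 called genes of highest level and the 5 of lowest P in each direction, the 3 strongest members of each of 45 lists (or, where none passed, the 2 of highest level), genes called for both PGE2 and the difference between states, and checks of the cells and receptors. It named 135 genes, and further members of the lists, neighbours and transcription factors were named after their values were seen. Exon overlap was computed with GENCODE vM21 coordinates. Some genes, also among those the rule took, are not reported here.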

Additional observations from a re-analysis of the deposited data

Results flagged for a closer look

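In 8 of 270 groups of 4 samples of the named genes, 1 sample lay far from the others, judged by its gap to the nearest sample over the whole range. Chance flags about 1 in 20 groups. With untreated bead-stimulated replicate 4, these were Irs2 (ratio 0.832, 20.1 CPM against 12.2 to 13.5), Chac1 (0.865, 16.6 against 20.4 to 20.9), Ypel4 (0.920, 1.01 against 0.257 to 0.318) and Myof (1, 0.0422 CPM against 0 in the others). With PGE2, they were replicate 3 of Txk (0.897, 47.6 CPM against 42.3 to 42.9), replicate 1 of Tnfrsf26 (0.878, 16.8 against 18.7 to 18.9), replicate 4 of Orc1 (0.934, 19.3 against 18.0 to 18.1) and replicate 1 of Mycn (0.849, 1.41 against 1.13 to 1.17).

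The PGE2 effect differed between bead-stimulated cells and cells with IL-2 alone, by the interaction test over 16 samples, for 6 genes described here. The log2 differences were 1.25 for Ifngr1, 0.58 for Gimap7, 0.49 for Gimap6, -0.85 for Tns1, -1.23 for Ptger2 and -1.40 for Epcam.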

How the results depend on the processing

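The 243 calls in bead-stimulated cells became 303 with DESeq2, 247 and 252 with RLE and upper-quartile factors, 283 without a filter, 187 with at least 10 counts in every sample, 333 in 1 fit of all 16 samples and 349 with the replicate block, which shared 242 genes with the 243. They became 62 with limma on log2(FPKM + 1), 110 on log2(FPKM + 0.1) and 1370 with no fold threshold, and ranged from 166 to 359 when 1 sample was left out. The 490 calls in cells with IL-2 alone ranged from 448 to 556 without 1 sample. The 35 calls for the difference between states became 53 with DESeq2, 60 with the replicate block and 113 with no fold threshold, and ranged from 18 to 72 without 1 sample. This last count moved by more than 1.5 times without replicate 1 (23) or 2 (18) of IL-2 alone, replicate 3 of IL-2 alone with PGE2 (20), untreated bead-stimulated replicate 1 (22) or 3 (22), and bead-stimulated PGE2 replicate 2 (20) or 4 (72). The cause of these moves was not tested. Among the 135 named genes, the replicate block kept 134 on the same side of the threshold, made 1 stronger, and changed no other call. Scd2, which did not pass, changed sign without PGE2 replicate 4, and its log2 fold change ranged from -0.029 to 0.30 without 1 sample. Of the 63 named genes that were called, 45 stayed called without each sample in turn and 18 lost the call without at least 1. With limma on log2(FPKM + 1), 14 of the 113 named genes in that fit lost their call, namely Tnfsf14 and Egr2 by adjusted P (0.0605 and 0.0616) and Emb, Cdkn1b, Sesn3, Tecpr1, Pde4d, Itgb3, Phlpp1, Tns1, Nt5e, Tnfrsf26, Irs2 and Pdgfb by the 2-fold limit. The median log2 fold change of all genes was -0.01 with RLE and 0.01 with upper-quartile factors. At low counts the depth limits which changes can be seen.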

Other observations

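Several called genes outside the lists and the naming rule are given here, chosen after their values were seen. Those called higher included Abcb1a, a drug efflux pump (7.44 to 21.6 CPM, log2 fold change 1.54 ± 0.12, SE), Camk4, a calcium and calmodulin-dependent kinase (104 to 214 CPM, 1.04 ± 0.11), Coq8a, which acts in coenzyme Q synthesis (8.09 to 19.9 CPM, 1.31 ± 0.10), Lyst, a regulator of lysosomal trafficking (49.2 to 123 CPM, 1.33 ± 0.14), and Tbc1d4, a regulator of glucose transporter traffic (7.90 to 19.9 CPM, 1.35 ± 0.17). Xdh, xanthine dehydrogenase (21.0 to 45.5 CPM), Upp1, uridine phosphorylase (3.04 to 7.81 CPM), and Nmrk1, a nicotinamide riboside kinase (10.9 to 24.5 CPM), were also called higher, as were Ift80 (34.9 to 74.6 CPM) and Wdr19 (2.20 to 5.37 CPM), which encode parts of the intraflagellar transport machinery of cilia. Among called lower genes were Flt3l, the FLT3 ligand gene (30.6 to 13.3 CPM, -1.20 ± 0.13), Gpr55, a lipid-sensing receptor (48.9 to 23.5 CPM, -1.05 ± 0.12), Drc1 (20.2 to 7.35 CPM, -1.45 ± 0.17) and Hbegf, a growth factor of the EGF family (5.24 to 2.15 CPM, -1.27 ± 0.28).

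Calls, which require 2-fold, were made in 3.32% of genes with a mean below 1 CPM and 0.325% of those above 300 CPM, whereas an adjusted P below 0.05 alone was reached by 2.31% (higher) and 1.18% (lower) below 1 CPM and by 7.47% and 4.87% above 300 CPM.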
